A study of Mus musculus with 2 samples.

Results

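Of the 17922 peaks at which miR-9 was captured on chromatin of MLg cells, 557 (3.11%) lay in short interspersed elements (SINEs) other than B1 and B2. They were chosen by the repeat that the deposited HOMER annotation gives at the peak, with the class SINE and a family other than Alu, which holds the mouse B1 elements, and B2. No measured value entered this choice. The members made up 31.2% of the 1787 SINE peaks, beside 697 peaks in B1 and 533 in B2, and 16135 peaks lay outside SINEs. MLg is an established fibroblast line from mouse lung, grown without any treatment in the labels. Chromatin fixed with formaldehyde was hybridised to biotinylated oligonucleotides complementary to mature miR-9, pulled down on streptavidin beads and sequenced (ChIRP-seq), to ask where this microRNA contacts the genome. There was 1 capture library and 1 input library, with no replicate and with no control-probe capture analysed here, and a peak list cannot show whether fibroblast markers were expressed.

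The score column was 0 in every peak, so enrichment and sequencing depth were unknown and each result below describes positions, widths and sequences. Shares are given with exact (Clopper-Pearson) 95% intervals, which cover counting error only. With 1 capture library no difference between groups of peaks could be tested, and every comparison is a description of this 1 list. Copies of a repeat descend from shared ancestors, so members of a family are not independent of each other in sequence. A repeat name applies to the centre of a peak, the ends of the elements were not known, and a match or run elsewhere in the peak was not placed inside or outside the element.

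SINEs are short retroposons copied from RNA polymerase III transcripts, and most of the families here carry a head derived from a tRNA gene, in which polymerase III is recruited through internal A and B boxes. ID elements of rodents derive from the BC1 RNA gene, B4 elements join an ID-like head to a B1-like body, and MIR (mammalian-wide interspersed repeat, unrelated to microRNA in spite of its name) is an old family shared by mammals, most copies of which have long decayed. AmnSINE1, of the Deu family, is older still. miR-9 silences mRNAs in the cytoplasm through its seed, the bases near its 5′ end that pair with target mRNAs.

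The sequence of miR-9-5p, from RefSeq, is shown first because the matches below are read against it. Capitals mark the seed, bases 2 to 8, in the upper line and bases 12 to 23, at the 3′ end, in the lower line.
miR-9-5p, seed: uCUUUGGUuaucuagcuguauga
miR-9-5p, 3′ part: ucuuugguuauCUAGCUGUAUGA

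The windows below are shown because they carry the stretch of miR-9 found most often in peaks centred on MIR elements. They are 8 of the 9 peaks of the MIR family with bases 12 to 23 of miR-9 at up to 1 mismatch, printed in the direction of miR-9 with up to 15 bases on either side, and capitals mark the match. Positions are in mm10, read from the GRCm38.p6 assembly behind it.
MIR peak near Ap1b1, chr11:4997052-4997093, plus strand: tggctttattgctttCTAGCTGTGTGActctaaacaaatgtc
MIR peak near Sh3pxd2b, chr11:32375768-32375809, minus strand: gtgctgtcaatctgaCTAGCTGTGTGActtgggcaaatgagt
MIR peak near Tnrc18, chr5:142800166-142800207, plus strand: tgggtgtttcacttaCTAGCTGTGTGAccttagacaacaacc
MIR3 peak near Abhd2, chr7:79274893-79274934, plus strand: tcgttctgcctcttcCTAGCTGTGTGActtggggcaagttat
MIR3 peak near Rrm1, chr7:102387699-102387731, plus strand: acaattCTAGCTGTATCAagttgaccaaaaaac
MIRb peak near Creb3l1, chr2:92058968-92059009, minus strand: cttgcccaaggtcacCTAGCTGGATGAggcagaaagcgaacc
MIRb peak near Kcnip1, chr11:33840698-33840739, minus strand: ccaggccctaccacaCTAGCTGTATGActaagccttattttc
MIRb peak near Pkdcc, chr17:83219529-83219570, plus strand: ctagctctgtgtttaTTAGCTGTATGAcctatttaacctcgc

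The 557 members covered 0.227 Mb and fell into 13 repeat names. The B4 family held 441 peaks (79.2% of members), of which 128 were B4A, 127 RSINE1, 112 ID_B1 and 74 B4. The MIR family held 79 (14.2%), with 30 MIR, 26 MIRb, 16 MIRc and 7 MIR3. The ID family held 35 (6.28%), with 15 ID4_, 12 ID4, 4 ID and 4 ID2, and 2 peaks lay in AmnSINE1, near Zfp804a and 1810053B23Rik. The list therefore consisted mainly of B4-type elements, with a minority in the old MIR family.

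Widths fell into narrow peaks of at most 250 bases, of which there were 250 with a median of 155 bases, and 307 wide peaks with a median of 567 bases. The share of wide peaks was 55.1% (95% interval 50.9 to 59.3), against 52.7% of all peaks. The median width was 455 bases in the B4 family, 475 in the MIR family and 171 in the ID family, compared with 272 in B1, 189 in B2 and 410 outside SINEs. The authors called peaks repeatedly at different fragment shifts and merged the calls, so a width is not a measure of binding. Wide peaks hold more sequence in which a motif can occur.

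**Figure D1:**
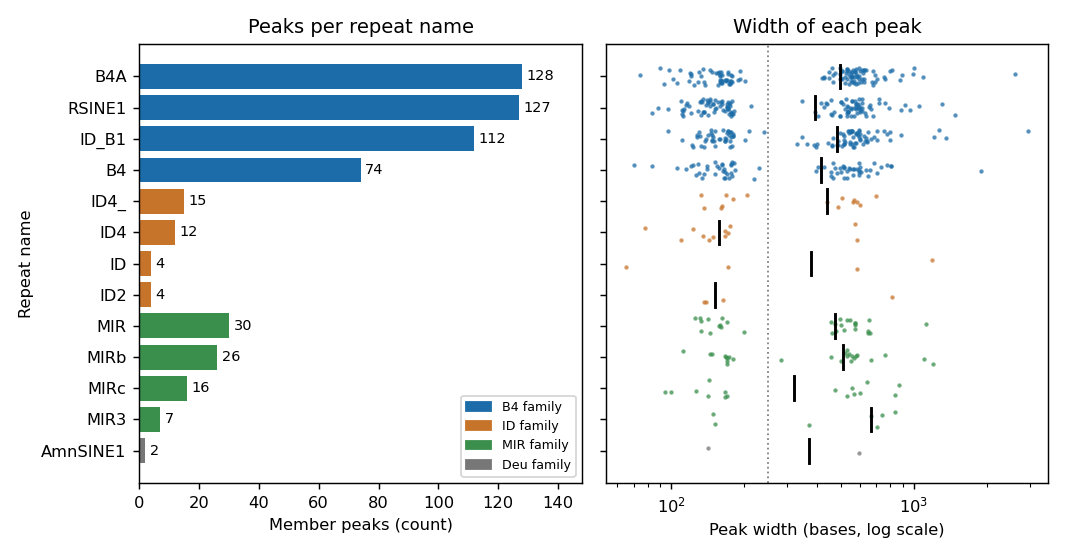
Number of member peaks per repeat name (left, bars) and the width of each peak in bases on a log scale (right, points, with the median as a black line and 250 bases dotted). B4A, RSINE1 and ID_B1 lead with 128, 127 and 112 peaks, and every name with more than a few peaks has widths on both sides of the dotted line.

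The 10 widest members were led by the peak in ID_B1 near F3, which codes for tissue factor, the starter of blood coagulation. It was 2961 bases wide, at chr3:121725081-121728041. The next were those near Gm21119 (B4A, 2610 bases), Nedd4 (B4, 1895), Azin1 (RSINE1, 1477) and Dctn4 (ID_B1, 1360). Nedd4 is an E3 ubiquitin ligase and Dctn4 a subunit of dynactin. Eya1 (RSINE1, 1300), a developmental transcriptional coactivator, Mir684-1 (ID_B1, 1267), Scd3 (ID_B1, 1208), Foxs1 (MIRb, 1203) and Ubxn8 (ID, 1187) completed them. Of these 10, 8 lay in B4-family elements and 7 were annotated as intron.

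By location, 319 members were annotated as intron (57.3%, 95% interval 53.0 to 61.4) and the other 238 as intergenic, while 42.1% of all peaks were in introns. Introns held 57.6% of the B4 family, 51.9% of the MIR family and 68.6% of the ID family, beside 58.7% of B1 peaks, 59.5% of B2 peaks and 40.3% of peaks outside SINEs. The members thus resembled the other SINEs in this measure. First introns held 98 members (17.6%), beside 13.4% of all peaks, 19.8% of B1 and 19.5% of B2 peaks. HOMER assigns each peak the gene with the nearest transcription start site (TSS), which need not be the gene whose intron it lies in.

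Within 2 kb of a TSS lay 30 members (5.39%, 95% interval 3.66 to 7.60), 15 upstream and 15 downstream, against 8.31% of all peaks. None lay within 500 bases, and the closest centre was 588 bases away. The annotation itself limits this count, since none of the 597 peaks that HOMER put in the promoter-TSS class carries a repeat name. Among protein-coding genes the closest members were at Thg1l, a tRNA guanylyltransferase (B4, 670 bases downstream), and Fignl1, an ATPase of homologous recombination (RSINE1, 880 downstream). Next came Lrig2 (RSINE1, a distance of -1037, where negative is upstream), Dtwd2 (ID_B1, 1045), Phlpp2, a phosphatase of Akt kinases (ID_B1, -1076), and Kcnj13, a potassium channel (ID_B1, 1174). Rac1, a small GTPase of the cytoskeleton (B4A, -1181), Mospd3 (B4A, 1195), Igdcc3 (RSINE1, -1208) and Dctn4 (ID_B1, 1270) followed.

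At larger distances the order changed. Within 10 kb lay 31.2% of members and 26.4% of all peaks, and over 100 kb away lay 15.4% of members, 10.3% of B1 peaks, 8.44% of B2 peaks and 24.98% of peaks outside SINEs. The median distance was 24540 bases in the B4 family, 19920 in the MIR family and 20260 in the ID family, and it was 16140 in B1, 15500 in B2 and 31750 outside SINEs. The members therefore lay between the other SINEs and the rest of the list.

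**Figure D2:**
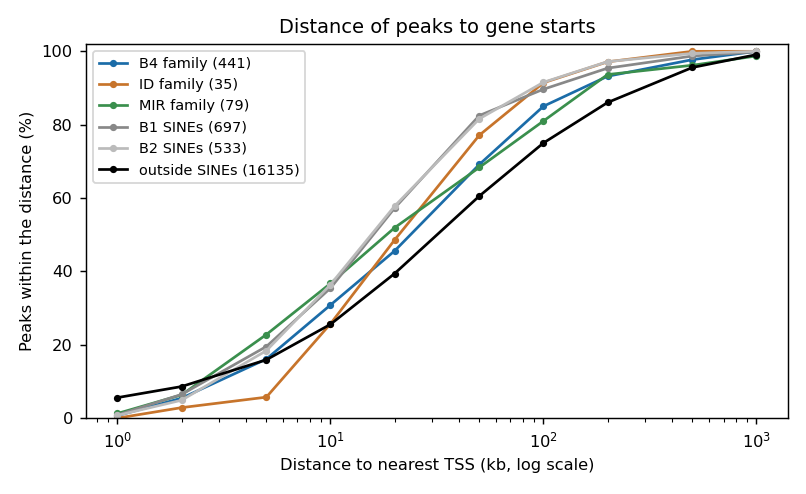
Share of peaks (%) within each distance of the nearest TSS (kb, log scale) for the B4, ID and MIR families, B1, B2 and peaks outside SINEs, with the number of peaks in brackets. Over 100 kb from a TSS lay 15.4% of all members and 24.98% of peaks outside SINEs.

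The members were assigned to 527 genes, and 2 had no gene name. Gm5859 and Nckap5 had 3 members each and 24 genes had 2. At Nckap5 the members were 2 B4A and 1 B4 element between bases 126415517 and 126932382 of chromosome 1. At Gm5859, on chromosome 4, they were 2 B4A and 1 ID4 element, each of which also occurred in further copies of the assembly, with median word counts of 6 to 7.

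Copy number was measured as the number of places at which the 32-base words of a peak occur in the assembly. High copy, with most of the words at 5 or more places, applied to 14 members (2.51%, 95% interval 1.38 to 4.18), against 21.5% of all peaks, 24.4% of B1 peaks, 15.6% of B2 peaks and 22.3% of peaks outside SINEs. Peaks with no repeat in their annotation had 5.14%. The median word of 535 members (96.0%) occurred once, beside 73.9% of all peaks and 91.1% of peaks with no repeat. Of the 14, 8 were B4A elements and 7 lay on chromosome 4. The highest median was 37, in ID_B1 near Gm10413.

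**Figure D3:**
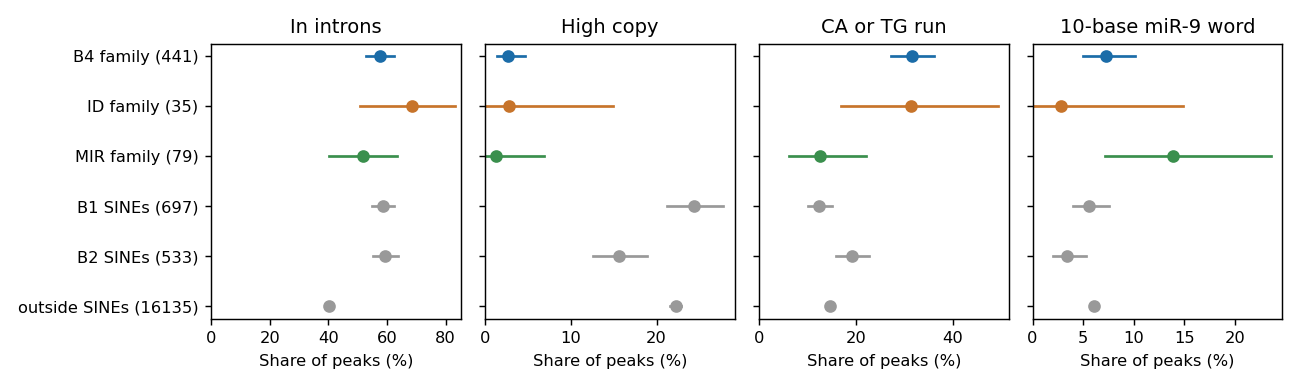
Share of peaks (%, points) with exact 95% intervals (lines, counting error only) in introns, of high copy, with a CA or TG run and with a 10-base word of miR-9, by family, with the number of peaks in brackets. High copy applies to 2.72% of the B4 family and 24.4% of B1 peaks, and CA or TG runs to 31.5% of the B4 family and 12.48% of B1 peaks.

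In clusters of 3 or more peaks, joined wherever neighbours were no further apart than ROSE, a program for super-enhancers, joins them by default, lay 79 members (14.2%, 95% interval 11.4 to 17.4), beside 14.0% of all peaks, so the share matched the background. They were spread over 70 clusters, and 9 clusters held 2 members. Large clusters with a member were assigned to Mir763 (22 peaks, MIR3), Tmtc1 (16 peaks, ID4_ and ID_B1) and Zfp868 (15 peaks, B4A).

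By chromosome, members were 5.89% of the 764 peaks of chromosome 9 (45 peaks, 95% interval 4.33 to 7.80) and 4.15% of the 1423 peaks of chromosome 1 (59 peaks). Chromosome 12 had 1 member among 297 peaks (0.337%, 0.00852 to 1.86), chromosome 16 had 4 among 319, and chromosome Y none among 58, which allows a share of up to 6.16%. The remaining chromosomes lay between 1.69% and 3.96%.

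Runs of at least 6 CA or TG units were more frequent in the members than over the list. They occurred in 160 members (28.7%, 95% interval 25 to 32.7), against 15.2% of all peaks. The share was 39.4% in RSINE1 (50 of 127, 30.8 to 48.4), 38.3% in B4A (49 of 128) and 36.5% in B4 (27 of 74), but 11.6% in ID_B1 (13 of 112, 6.33 to 19.03), also of the B4 family. The ID family had 31.4% and the MIR family 12.7%, beside 12.48% of B1, 19.1% of B2 and 14.7% of peaks outside SINEs. The median run was 31 bases long and the longest, 65 bases, was at Nedd4.

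Where the run lay in the peak also differed by name, a breakdown made after the values had been seen. Within the central 150 bases it was found in 26.8% of RSINE1 peaks (34 of 127, 95% interval 19.3 to 35.4), 21.6% of B4 and 11.7% of B4A peaks, and in 0 of 112 ID_B1 peaks, which allows a share of up to 3.24%. Over all members the share was 12.9%, beside 9.11% of all peaks. The interval of B4A (6.71 to 18.6) contained the share of all peaks. The median distance of the longest run from the peak centre was 50.5 bases in RSINE1, 76 in B4, 142 in B4A and 188.5 in ID_B1. The 3 peaks below are shown whole, because each shows a run together with the rest of a peak of at most 150 bases. They were taken as examples for RSINE1, B4 and ID4, picked for a small distance of the run from the peak centre. They do not show its usual place, and in peaks this short any run counts as central. Capitals mark the run.
RSINE1 peak near Oit3, chr10:59511230-59511349, plus strand: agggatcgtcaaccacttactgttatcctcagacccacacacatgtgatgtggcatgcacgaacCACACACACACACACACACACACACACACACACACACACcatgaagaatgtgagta
B4 peak near Ect2l, chr10:18179852-18179921, plus strand: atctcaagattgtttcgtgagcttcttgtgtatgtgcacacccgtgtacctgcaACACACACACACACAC
ID4 peak near Usp24, chr4:106292890-106292967, plus strand: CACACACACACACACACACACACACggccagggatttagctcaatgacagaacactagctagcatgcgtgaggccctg

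In the RSINE1 peak near Oit3 the run had other sequence on both sides, whereas at Ect2l and Usp24 it stood at an edge of the peak.

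**Figure D4:**
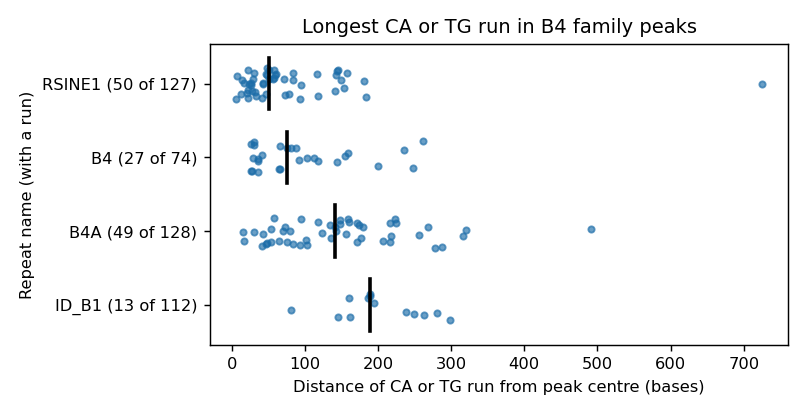
Distance of the longest CA or TG run from the peak centre in bases (each point 1 peak, black line the median) for the names of the B4 family, with the number of peaks that hold a run. The median is 50.5 bases in RSINE1 and 188.5 in ID_B1.

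A word of 10 bases of miR-9-5p, on either strand, was present in 44 members (7.90%, 95% interval 5.80 to 10.5), against 6.04% of all peaks and 1.05% of consecutive 450-base tiles of the assembly, which were not matched to the widths of the peaks. As wide peaks hold the word more often, this tile share is no expected value for them. It was found in 13.9% of the MIR family (11 of 79, 7.16 to 23.6), 7.26% of the B4 family and 2.86% of the ID family (1 of 35), beside 5.60% of B1, 3.38% of B2 and 6.08% of peaks outside SINEs. The interval of the members contained the share of all peaks. Of the 44 peaks, 39 were wide, 28 were in introns and 7 also held a CA or TG run. Over all members these traits applied to 55.1%, 57.3% and 28.7%. On the plus strand of the assembly the longest run read along miR-9 in 22 and along its complement in 22. The strands of the repeat and of the gene were not used, so this split says nothing about them. In 32 of the 44 the longest run started at base 7 or later, and in 5 it covered the whole seed. These counts were not made for the other peaks, so they show no preference of the members. The most frequent 10-base word was that of bases 11 to 20 in members (1.8%) and in the other peaks (1.09%) alike.

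The longest runs were of 13 bases, in the B4A peak near 4930471G24Rik from base 1 of miR-9 and in the MIR peak near Esx1, an X-linked homeobox gene, from base 8. Runs of 12 bases occurred in 8 members, near Aar2, Arfgef1, B3gnt6, Gm30332, Kcnip1, Nos1, Pkm and Trhde. Nos1 codes for neuronal nitric oxide synthase and Pkm for pyruvate kinase. Runs of 11 bases occurred in 16, near 4930591E09Rik, Azgp1, Deptor, Eya1, Gm5169, Hint1, Hydin, Mkrn2, Pid1, Pkdcc, Pus10, Rrm1, Shtn1, Slc24a5, Tenm4 and Ubxn8. The lines below show both runs of 13 and 2 of 12 taken as examples, with the run in capitals.
B4A peak near 4930471G24Rik, chr13:47490403-47490445, plus strand: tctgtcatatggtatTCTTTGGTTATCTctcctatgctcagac
MIR peak near Esx1, chrX:137196974-137197016, plus strand: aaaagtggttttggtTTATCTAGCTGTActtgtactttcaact
B4 peak near Nos1, chr5:117908545-117908586, plus strand: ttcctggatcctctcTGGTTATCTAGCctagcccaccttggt
B4 peak near Pkm, chr9:59645363-59645404, plus strand: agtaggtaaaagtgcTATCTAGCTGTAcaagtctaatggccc

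The run near 4930471G24Rik contains the seed, while those near Esx1 and Pkm lie in the middle and 3′ part of miR-9.

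Bases 12 to 23 of miR-9, allowing 1 mismatch, were then followed because this stretch had been noticed while member sequences were searched for recurrent words. It is 1 of 12 windows of 12 bases and was chosen after its values were seen. It was present in 9 of 79 peaks of the MIR family (11.4%, 95% interval 5.34 to 20.5), against 1.16% of all peaks and 0.172% of 450-base tiles. It was present in 1.36% of the B4 family (6 of 441), 1 of 35 ID peaks, 1.00% of B1, 0.563% of B2 and 1.122% of peaks outside SINEs. The tiles were not matched to the widths of the peaks, so their share is no expected value here either. Of the MIR family, 8 of 47 wide peaks (17.0%) and 1 of 32 narrow peaks held the stretch. In the MIR family the other 11 windows were matched in 0 to 6 peaks, with none for the windows starting at bases 1 to 3.

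Kcnip1 carried bases 12 to 23 with no mismatch. Substitutions are written with the letter of miR-9 in DNA first, then its base counted from the 5′ end, then the letter of the peak. A20G was the only difference in 5 of the 9 peaks, 4 named MIR, among them those near Ap1b1, Sh3pxd2b and Tnrc18, and 1 named MIR3, near Abhd2. Rrm1 had G22C, Creb3l1 T19G and Pkdcc C12T. Ap1b1 is a subunit of a clathrin adaptor, Sh3pxd2b an adaptor of podosomes, Rrm1 the large subunit of ribonucleotide reductase and Creb3l1 a transcription factor of the endoplasmic reticulum. The match lay within 50.5 bases of the peak centre in 6 of the 9. It was 147.5 bases away at Abhd2, 182.5 at Sh3pxd2b and 320.5, at the edge of the peak, at Rrm1. Of the 9 peaks, 8 were annotated as intron, beside 51.9% of the MIR family and 42.1% of all peaks. These peaks were picked after their values were seen, and a preference for introns was not tested. MIR copies without a peak were not analysed here, so whether peaks hold this stretch more often than other copies of the family was not tested.

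**Figure D5:**
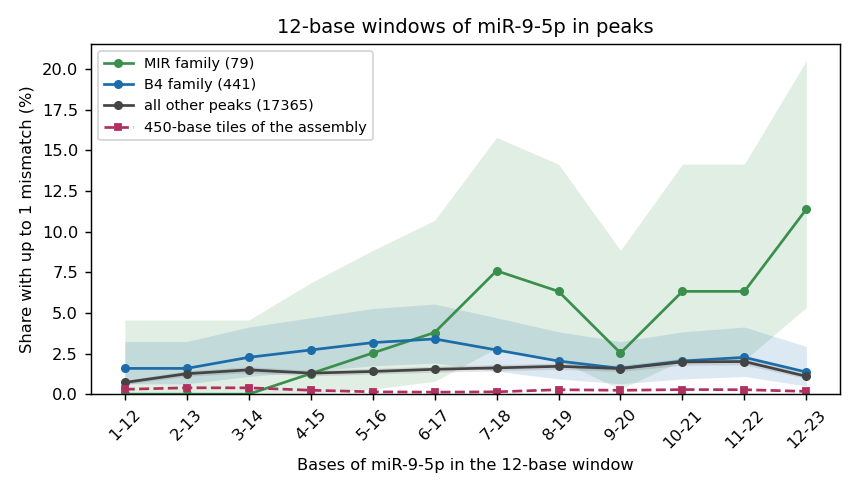
Share of peaks (%) that hold each 12-base window of miR-9-5p at up to 1 mismatch, for the MIR family, the B4 family and all peaks that are not members (lines, with 95% intervals shaded) and for 450-base tiles of the assembly (dashed). The MIR family reaches 11.4% at bases 12 to 23, where all other peaks have 1.10%.

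The B box was searched as GTTCNANNC and the A box as TGGCNNAGT, both on either strand and without a bar on overlap between them. Boxes spelled otherwise than in these letters were not counted, so a lower share in a family need not mean that it has fewer boxes. A hit was not placed inside or outside the element either, so these shares need not count boxes of the named families. A B box in these letters was present in 104 members (18.7%, 95% interval 15.5 to 22.2), near the 17.4% of all peaks and below the 53.5% of B1 and 43.3% of B2 peaks. It was present in 20.4% of the B4 family, 22.9% of the ID family and 6.33% of the MIR family. An A box was present in 64 members (11.5%), against 6.7% of all peaks, and in 21.01% of B2 peaks. An A box followed by a B box 30 to 80 bases on, a spacing set after the sequences had been seen, occurred in 7 members (1.26%), against 1.13% of all peaks and 13.1% of B2 peaks. They lay near Birc7, Cct2, Gcdh, Gm21119, Hook2, Rsf1os1 and Spertl, and all 7 peaks were centred on elements named in the B4 family. Of these, 3 are shown from A box to B box, both in capitals, because the stretches can be read against each other. The middle of these 3 stretches lay 169 (Birc7), 205 (Cct2) and 232 (Spertl) bases from the peak centre, and over the 7 peaks the distance ranged from 48.5 to 272 bases. Whether the stretches belong to the B4-family elements or to a neighbouring repeat was not tested.
B4 peak near Birc7, chr2:180941137-180941191, minus strand: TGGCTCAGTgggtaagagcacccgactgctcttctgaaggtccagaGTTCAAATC
ID_B1 peak near Cct2, chr10:117093381-117093434, plus strand: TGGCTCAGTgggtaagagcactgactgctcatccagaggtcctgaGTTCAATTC
B4A peak near Spertl, chr14:95028732-95028786, minus strand: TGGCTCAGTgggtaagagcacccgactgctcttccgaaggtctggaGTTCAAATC

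G-quadruplex motifs, in which 4 stretches of 3 or more G are parted by loops of up to 7 bases, were present in 27 members (4.85%, 95% interval 3.22 to 6.97), and 5.65% of all peaks had one. The share was 4.99% in the B4 family and 5.06% in the MIR family, and 1 of 35 ID peaks had the motif. The GC content had a median of 44.5% in members and 42.2% in all peaks.

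The genes of 5 lists were looked up among the members. In TGFB signalling and its induced genes, 3 of 36 had a member, namely Smad6, an inhibitory Smad (MIRb, 9450 bases downstream of the TSS), Tgif1, a corepressor (ID_B1, 49005), and Pmepa1, a TGFB-induced inhibitor of the pathway (MIR3, 13167). In contractile and cytoskeletal genes, 2 of 30 had one, Acta2, smooth muscle actin (RSINE1, 9531), and Tpm1, a tropomyosin (RSINE1, 27358). In chromatin and transcription regulators, 2 of 40 had one, the H3K4 demethylase gene Kdm5b (B4, 9671) and the cohesin gene Stag2 (RSINE1, 140387). No gene of the 38 for matrix and fibroblast identity or of the 20 for the miRNA pathway had a member. Members were 3 of 45 peaks assigned to the first list, 2 of 49 and 2 of 64 to the next, and 0 of 51 and 0 of 6 to the last, beside 3.11% over the list as a whole.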

How the data were processed

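Per the study's methods and the submitters' processing notes, reads were trimmed (Trimmomatic 0.36), aligned to mm10 with Bowtie2 and cleared of duplicates, peaks were called over the input on an uncorrected p-value at more than 1 fragment shift, merged with bedtools and annotated with HOMER. The aligner's default places a read of several loci at 1 of them. The authors deposited 1 table of positions and annotation, whose other columns are labels, and a score column that was 0 in all peaks. The annotation of 8093 peaks, split at commas, was rejoined. Sequences came from GRCm38.p6, and all peaks lay within its 21 chromosomes. Scripts (Python 3.11.15, numpy, pandas, scipy, numba) were tested on simulated sequences. Named genes were the 10 widest members, runs of 11 or more bases, the 10 protein-coding members closest to a TSS, genes with 3 or more members and list genes. Members and lists were chosen with earlier results of these data known. Alternatives changed 1 setting at a time. Some items are not reported here.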

Additional observations from a re-analysis of the deposited data

How the results depend on the processing

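Of 47 alternatives, 20 stayed within the 95% interval of the value reported and 27 moved outside it, and 6 of the 47, for bases 12 to 23 of miR-9 and for paired boxes, were chosen after seeing the data. The share in introns, the share of wide peaks and, on leaving out high-copy members, those near a TSS, in clusters and with a 10-base word, B box, G-quadruplex motif or CA or TG run stayed within the interval. In wide and narrow members the 10-base word was found in 12.7% and 2.00%, the B box in 25.7% and 10.0%, G-quadruplex motifs in 8.14% and 0.800%, and CA or TG runs in 37.5% and 18%. Narrow members were in clusters in 10.4%. In the central 150 bases the shares were 3.41% (word), 10.1% (B box), 1.08% (G-quadruplex) and 12.9% (CA or TG run). Of all peaks, 2.53% held the word there and 9.11% a CA or TG run. Words of 8, 9 and 11 bases gave 29.4%, 14.9% and 4.67%, a B box with a further G before it gave 2.69%, loops up to 12 bases 7.18% and 10 CA or TG units 21.7%. Within 5 kb and 1 kb of a TSS lay 16.3% and 0.718%. Words at 20 or more places gave 0.180% of high copy, and gaps of 5 and 25 kb gave 8.44% and 25.5% in clusters. In the MIR family, bases 12 to 23 were found in 3.12% of narrow peaks, in 1.27% with no mismatch and in 24.1% with up to 2. No paired analysis was possible because each group had 1 library. Depth and enrichment are unknown, so how firmly any 1 peak is called could not be weighed.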
